A study of Mus musculus with 93 samples.

Results

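Amacrine cells are the inhibitory interneurons of the inner retina, and 9 genes of their identity and transmitters were followed here in the neural retina of female mice. The genes are Gad1, Gad2, Slc32a1, Slc6a9, Chat, Th, Tfap2a, Tfap2b and Calb2. They were taken by symbol from tables of 30235 genes, and all 9 were found and passed the filter on low counts. The rule is a list of gene symbols and uses no measured value, but the list was drawn up with earlier results of these data known. The retinas came from Efemp1ki/ki mice, which carry a homozygous knock-in of Efemp1 and model Doyne honeycomb retinal dystrophy, and from wild-type mice (Efemp1+/+), at 3, 9 and 17 months of age, all untreated. Each of the 6 groups had 8 libraries, so 48 of the 93 libraries of the series were used, and the other 45 came from posterior eyecups of the same genotypes and ages. Efemp1 encodes fibulin-3, an extracellular matrix protein. Whether the 8 libraries of a group stem from 8 mice is not stated in the labels, and p-values therefore refer to the spread among libraries, which may in part be technical.

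Most amacrine cells release either gamma-aminobutyric acid (GABA) or glycine onto bipolar cell terminals, ganglion cells and each other. GABA is made from glutamate by glutamate decarboxylase, and both transmitters are loaded into vesicles by a shared transporter. Small subtypes add a second transmitter, as starburst amacrine cells do with acetylcholine and dopaminergic amacrine cells with dopamine. In whole retina these transcripts come from a minority of cells, and in such bulk libraries fewer cells of a type and less RNA per cell cannot be told apart.

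Library totals ran from 9218127 to 37475492 estimated counts, with a median of 16813523. The smallest count behind a value of these genes was 33, for Th. Levels between groups are given as CPM, counts scaled to library size by edgeR (TMM, the trimmed mean of M values), and levels between genes as the authors' TPM, which corrects for transcript length. Libraries differed in how their counts followed the GC content of genes. The GC trend of a library is the slope of its log2 deviation from the mean of all 48 per 10 percentage points of GC. The trend averaged -0.055, -0.028 and 0.051 at 3, 9 and 17 months in Efemp1ki/ki retinas, and 0.036, -0.088 and 0.084 in wild-type retinas. Replicate 5 of the Efemp1ki/ki group at 3 months, replicate 7 of wild type at 9 months and replicate 2 of wild type at 17 months stood apart from their groups, with GC trends of -0.34, -0.32 and 0.40. Counts of genes called are therefore also given without these 3 libraries and with an offset per library for GC content. For the fit without these 3 libraries the share of all genes called is not given beside its counts. The ranges of counts over all genes at the end include that fit.

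The enzymes of GABA synthesis, glutamate decarboxylases, are encoded by Gad1 (ENSMUSG00000070880.10, chromosome 2, 70553072 to 70602014) and Gad2 (ENSMUSG00000026787.3, chromosome 2, 22622205 to 22693874), both on the plus strand of GRCm38. Gad1 gave a median of 279 TPM over the 48 retinas and Gad2 35.0 TPM. The ratio of Gad1 to Gad2 was 7.87 ± 0.41 (SD, n = 48), with a range of 7.00 to 8.80. The antisense gene Gad1os overlaps Gad1, and since the strand setting of the counting is not given in the sources used here, their reads cannot be told apart. The start regions of this pair are shown because their levels moved together across libraries, and that of Th because its level differed with age in Efemp1ki/ki retinas. Each window runs from 250 bases before to 50 bases after the start in RefSeq (GRCm38.p6), and windows were found for 8 of the 9 genes. Capitals mark matches to 3 motifs searched on both strands, without overlap between them. These were the AP-2 motif GCCNNNGGC (the DNA motif of the factor family of Tfap2a and Tfap2b), the cyclic AMP response element TGACGTCA and the TATA box letters TATAAA.
Gad1 (chr2:70561879-70562178, plus strand): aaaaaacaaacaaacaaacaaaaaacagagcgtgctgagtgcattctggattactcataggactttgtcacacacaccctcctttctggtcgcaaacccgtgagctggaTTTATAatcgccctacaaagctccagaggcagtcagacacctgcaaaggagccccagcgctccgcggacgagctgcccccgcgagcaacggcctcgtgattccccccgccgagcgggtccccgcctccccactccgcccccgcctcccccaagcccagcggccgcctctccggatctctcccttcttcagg
Gad2 (chr2:22622077-22622376, plus strand): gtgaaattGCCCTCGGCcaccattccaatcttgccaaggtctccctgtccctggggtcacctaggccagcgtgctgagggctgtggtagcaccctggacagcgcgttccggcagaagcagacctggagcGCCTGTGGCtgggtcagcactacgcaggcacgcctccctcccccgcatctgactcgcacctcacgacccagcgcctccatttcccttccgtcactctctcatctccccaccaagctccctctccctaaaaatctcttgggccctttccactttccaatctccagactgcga
Th (chr7:142899946-142900245, minus strand): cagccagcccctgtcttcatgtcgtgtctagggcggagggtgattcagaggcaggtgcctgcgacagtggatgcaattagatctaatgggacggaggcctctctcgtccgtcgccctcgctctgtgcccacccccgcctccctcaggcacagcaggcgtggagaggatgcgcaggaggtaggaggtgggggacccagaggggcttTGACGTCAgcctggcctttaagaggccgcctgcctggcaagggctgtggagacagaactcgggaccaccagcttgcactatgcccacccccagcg

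The Gad2 window held 2 AP-2 matches, the Gad1 window 1 TATAAA match on the opposite strand (written TTTATA here), and the Th window 1 cyclic AMP response element. Among 32851 windows of this length, 16.6% held the AP-2 letters, 13.6% TATAAA and 1.79% the cyclic AMP response element. The windows of Slc32a1, Slc6a9, Chat, Tfap2a and Tfap2b held none of the 3 motifs. A match describes letters and is not a site shown to be bound.

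Gad1 had a lowest, median and highest value of 305, 330.3 and 423 CPM at 3 months, 276, 311 and 344 CPM at 9 months and 259, 289 and 327 CPM at 17 months in Efemp1ki/ki retinas. In wild-type retinas Gad1 had 318, 336 and 368 CPM at 3 months, 296, 325 and 375 CPM at 9 months and 289.9, 307 and 335 CPM at 17 months. At 17 months every Efemp1ki/ki library lay below the median of its genotype at 3 months, and so did every wild-type library, while the ranges overlapped in both genotypes. The mean of Gad1 was 290.1 ± 22.1 CPM in Efemp1ki/ki retinas at 17 months, against 341 ± 37.9 CPM at 3 months (SD, n = 8 each). Gad2 medians were 71.0, 68.6 and 64.9 CPM at 3, 9 and 17 months in Efemp1ki/ki retinas, and 71.4, 72.0 and 66.7 CPM in wild-type retinas. Over all 48 libraries Gad2 ran from 54.1 to 95.8 CPM, and the ranges of the 6 groups overlapped.

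Loading and clearance of the inhibitory transmitters are carried by Slc32a1 (ENSMUSG00000037771.11, chromosome 2, 158610767 to 158615748, plus strand), the vesicular transporter of GABA and glycine, and Slc6a9 (ENSMUSG00000028542.17, chromosome 4, 117834506 to 117875198, plus strand), the plasma membrane glycine transporter of glycinergic amacrine cells. Their median levels were 101 TPM for Slc32a1 and 184 TPM for Slc6a9. Slc32a1 had a lowest, median and highest value of 70.5, 96.4 and 104 CPM at 3 months, 79.7, 86.5 and 93.8 CPM at 9 months and 86.4, 90.8 and 95.5 CPM at 17 months in Efemp1ki/ki retinas. In wild-type retinas Slc32a1 had 93.8, 109 and 118 CPM at 3 months, 65.9, 86.7 and 92.2 CPM at 9 months and 87.7, 102 and 124 CPM at 17 months. In CPM all 8 wild-type libraries at 9 months lay below all 8 at 3 months. This was the 1 pair of groups compared here without overlap for any of the 9 genes. On the authors' TPM the ranges of Slc32a1 in these groups overlapped, at 91.1 to 108 TPM and 96.1 to 114 TPM. How many of all genes had no overlap in CPM was not counted. Slc6a9 medians were 204, 202 and 197 CPM at 3, 9 and 17 months in Efemp1ki/ki retinas, and 223, 202 and 212 CPM in wild-type retinas. Its libraries ran from 173 to 245 CPM, with overlap among all groups.

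Subtype enzymes were the least abundant of the 9. Chat (ENSMUSG00000021919.7, chromosome 14, 32408203 to 32465909, minus strand) encodes choline acetyltransferase, the acetylcholine-making enzyme of starburst amacrine cells, and had a median of 11.0 TPM. The vesicular acetylcholine transporter gene Slc18a3 lies within the Chat locus on the same strand, so their reads may be shared. Chat medians were 13.2, 11.5 and 12.2 CPM at 3, 9 and 17 months in Efemp1ki/ki retinas, and 14.0, 12.0 and 11.9 CPM in wild-type retinas. Th (ENSMUSG00000000214.11, chromosome 7, 142892752 to 142931128, minus strand) encodes tyrosine hydroxylase, the rate-limiting enzyme of dopamine synthesis, and had a median of 4.77 TPM. Th had a lowest, median and highest value of 3.27, 4.00 and 4.41 CPM at 3 months, 3.07, 3.69 and 5.06 CPM at 9 months and 2.56, 3.02 and 3.43 CPM at 17 months in Efemp1ki/ki retinas. In wild-type retinas Th had 3.09, 4.07 and 4.92 CPM at 3 months, 2.35, 3.14 and 4.04 CPM at 9 months and 2.72, 4.08 and 4.70 CPM at 17 months. At 17 months the highest Efemp1ki/ki library of Th was below the wild-type median of that age, though the ranges overlapped.

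Identity genes were Tfap2a (ENSMUSG00000021359.15, chromosome 13, 40715675 to 40733823, minus strand) and Tfap2b (ENSMUSG00000025927.13, chromosome 1, 19208914 to 19238576, plus strand), which encode AP-2 transcription factors of developing and mature amacrine and horizontal cells. Calb2 (ENSMUSG00000003657.9, chromosome 8, 110137502 to 110168210, minus strand) encodes the calcium-binding protein calretinin of amacrine subsets and ganglion cells. Tfap2b at 105 TPM was above Tfap2a at 33.6 TPM, and Calb2 was the most abundant of the 9 at 482 TPM. Tfap2a medians were 34.2, 31.2 and 31.5 CPM at 3, 9 and 17 months in Efemp1ki/ki retinas, and 34.2, 37.6 and 32.5 CPM in wild-type retinas. Tfap2b had a lowest, median and highest value of 195, 199.5 and 231 CPM at 3 months, 189, 197 and 206 CPM at 9 months and 166, 182 and 197 CPM at 17 months in Efemp1ki/ki retinas. In wild-type retinas Tfap2b had 183, 214 and 216 CPM at 3 months, 192, 202 and 222 CPM at 9 months and 176, 193 and 203 CPM at 17 months. At 17 months all 8 libraries of each genotype lay below its 3-month median of Tfap2b, with overlapping ranges. Calb2 had a lowest, median and highest value of 258, 281 and 314 CPM at 3 months, 223, 250.2 and 285 CPM at 9 months and 207, 238 and 263 CPM at 17 months in Efemp1ki/ki retinas. In wild-type retinas Calb2 had 279.5, 298 and 329.8 CPM at 3 months, 228, 261 and 289.9 CPM at 9 months and 237, 257 and 312 CPM at 17 months. All 8 Efemp1ki/ki libraries of Calb2 at 17 months lay below the 3-month median, as did 7 of 8 wild-type libraries.

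**Figure D1:**
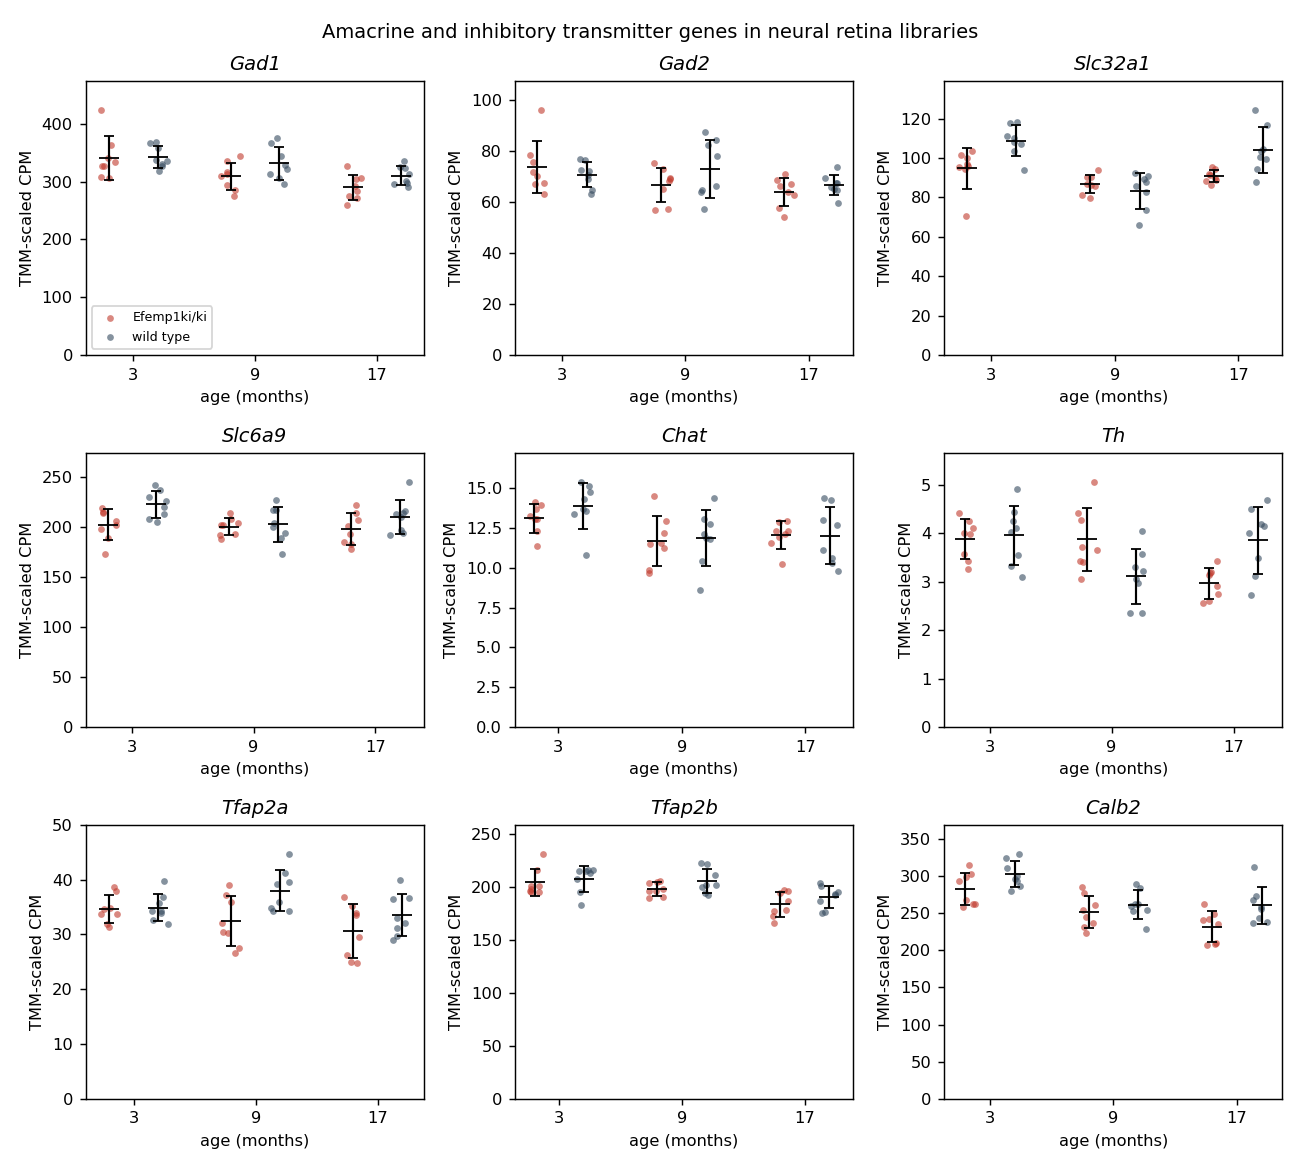
Level of each of the 9 genes in every neural retina library, as TMM-scaled CPM on a linear axis, by age in months with Efemp1ki/ki left of wild type. Points are libraries (8 per group) and black bars the mean ± SD; Calb2, Gad1 and Tfap2b sit lower at 17 than at 3 months in both genotypes, and Slc32a1 has its lowest group mean in wild type at 9 months.

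The same transcripts were present in posterior eyecups, the eye without lens and retina, at lower or similar median levels. Eyecup medians were 44.0 TPM for Calb2, 20.2 TPM for Gad1, 57.5 TPM for Slc6a9, 17.9 TPM for Tfap2b and 8.39 TPM for Slc32a1. Gad2 stood at 2.64 TPM, Th at 2.73 TPM and Chat at 0.708 TPM, with Chat listed at 0 in 3 eyecup libraries. Tfap2a was the exception, with an eyecup median of 37.6 TPM beside 33.6 TPM in retina. All 9 genes were above 0 in every retina library.

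The first comparison asked whether the knock-in alters these genes at each age. As a mean over ages the log2 fold change was negative for all 9 genes, although Chat and Th turned to 0.015 and 0.021 on log2(TPM + 1), and 1 of the 9, Calb2, passed the test. At 3 months none of the 9 passed, where 1.83% of the 17240 genes tested did (adjusted p under 0.05, edgeR quasi-likelihood test with Benjamini-Hochberg adjustment, used for every adjusted p below unless another tool is named). In Efemp1ki/ki retinas Slc32a1 averaged 94.9 ± 10.3 CPM at that age, against 109 ± 7.89 CPM in wild-type retinas (SD, n = 8 each). All 8 Efemp1ki/ki libraries lay below the wild-type median, the ranges overlapped, and the log2 fold change was -0.20 ± 0.06 (SE) with an adjusted p of 0.0736. Without the libraries that stood apart it was -0.14 (adjusted p = 0.0762), and with the GC offset it was -0.10 (adjusted p = 0.123). The GC trend of these 2 groups averaged -0.055 in Efemp1ki/ki and 0.036 in wild type. Slc6a9 showed the same arrangement, with 8 of 8 libraries below the wild-type median, a log2 fold change of -0.14 ± 0.05 and an adjusted p of 0.124. It was at -0.10 without the libraries that stood apart and at -0.09 with the GC offset (adjusted p = 0.179 and 0.184). None of the 9 passed in either of these fits, where 3.24% of all genes passed with the GC offset.

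At 9 months none of the 9 passed, and the background was 0%. Across all genes edgeR called 0 at that age, with 1047 genes at an unadjusted p under 0.05, and none of the 11 alternative fits called any. Th was 0.31 ± 0.11 and Tfap2a -0.23 ± 0.08 on the log2 scale, both with an adjusted p of 0.796. The Th value at 9 months is positive, with a median of 3.69 CPM in Efemp1ki/ki retinas, against 3.14 CPM in wild-type retinas.

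At 17 months none of the 9 passed, against a background of 0.406%. The largest differences were those of Th at -0.39 ± 0.11 (adjusted p = 0.0912), Slc32a1 at -0.19 ± 0.06 (adjusted p = 0.118) and Calb2 at -0.17 ± 0.06 (adjusted p = 0.135). For Th and Slc32a1 all 8 Efemp1ki/ki libraries lay below the wild-type median, and for Calb2 7 of 8 did. With the GC offset Slc32a1 passed at -0.16 (adjusted p = 0.0250), where 1.84% of all genes did, and without the libraries that stood apart none of the 9 did. Th averaged 2.97 ± 0.316 CPM in Efemp1ki/ki retinas, against 3.86 ± 0.690 CPM in wild-type retinas (SD, n = 8 each).

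Averaged over the 3 ages, 1 of the 9 genes passed, where 5.24% of all genes did and 2.69% were lower. Calb2 was lower in Efemp1ki/ki at -0.11 ± 0.03 (adjusted p = 0.0383), and 18 of 24 Efemp1ki/ki libraries lay below the wild-type median of their age. Of the 10 alternative fits that apply to this mean 6 called it, and adjusted p ran from 0.0238 to 0.175. It was lost without a filter on low counts (0.0594), with the replicate number as a block (at the threshold), on log2(TPM + 1) by limma (0.0845) and with rod, lens and pigment epithelium marker levels as covariates (0.175). Slc32a1 at -0.11 ± 0.04 just missed the threshold (adjusted p = 0.0522), with 20 of 24 libraries below. Without the libraries that stood apart both passed, Calb2 at -0.10 (adjusted p = 0.0463) and Slc32a1 at -0.09 (adjusted p = 0.0310). With the GC offset 3 passed, as Slc6a9 at -0.08 (adjusted p = 0.0320) joined Slc32a1 at -0.09 (adjusted p = 0.00855) and Calb2 at -0.11 (adjusted p = 0.0303), against a background of 10.8% in either direction and 6.4% lower. The median of the 9 log2 fold changes was -0.068, beside -0.0021 over all genes.

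**Figure D2:**
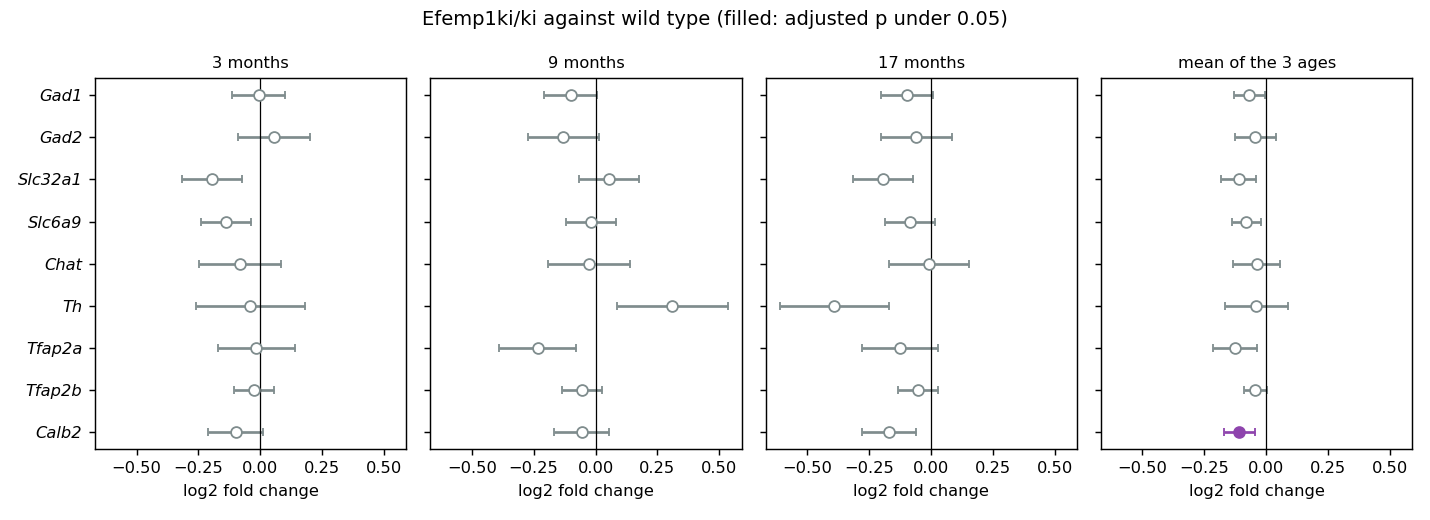
Log2 fold change of each gene in Efemp1ki/ki over wild type at 3, 9 and 17 months and as the mean of the ages, with 95% intervals from the edgeR fit; filled points have an adjusted p under 0.05. Most points lie left of 0 by less than 0.25, Th ranges most widely, and Calb2 in the mean of the ages is the 1 filled point.

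Some markers of other cells were called in the same comparison, beside a background of 5.24% of all genes (2.55% higher and 2.69% lower). Of 14 ganglion cell markers, 7 were lower and 0 higher in Efemp1ki/ki over the 3 ages, and their summed level was 903 to 1312 CPM in Efemp1ki/ki libraries and 997 to 1417 CPM in wild-type libraries. Ganglion cells also express Calb2. Of 11 rod markers 0 passed, and their sums were 53778 to 68229 CPM in Efemp1ki/ki libraries, against 53825 to 73271 CPM in wild-type libraries. Of 11 Müller glia markers 3 were lower, and of 11 bipolar cell markers 1 was higher and 3 lower. None of 10 horizontal cell, 10 pigment epithelium, 10 astrocyte, vascular and microglia or 7 ocular surface keratin genes passed in edgeR. All 8 lens crystallin genes tested were higher in Efemp1ki/ki, with sums of 1.18 to 1213 CPM, against 0.825 to 50.4 CPM in wild type, and 7 of 9 were at 0 in some library. These sums varied widely among libraries. Their medians at 3, 9 and 17 months were 9.28, 8.90 and 2.93 CPM in Efemp1ki/ki, against 1.41, 1.79 and 1.47 CPM in wild type. No gene of these lists was at 0 in every library. The covariate fit above held only rod, lens and pigment epithelium markers, so it cannot speak to ganglion, bipolar or Müller cells. The part of those cells in the difference of Calb2 was not tested.

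The second comparison asked what differed with age. From the youngest to the oldest mice, Calb2, Gad1, Tfap2b, Th, Chat and Gad2 fell by 9.2% to 15.9% when the genotypes were averaged. That is 6 of the 9 genes lower and 0 higher, where 36.4% of all genes passed and 17.3% were lower. Calb2 fell most at -0.25 ± 0.04 (adjusted p = 2.72e-06), in 15 of 16 libraries at 17 months set against the 3-month median of their genotype. Gad1 was at -0.19 ± 0.04 (adjusted p = 0.000134) and Tfap2b at -0.14 ± 0.03 (adjusted p = 0.000192), each lower in 16 of 16 libraries. Th at -0.22 ± 0.08, Chat at -0.16 ± 0.06 and Gad2 at -0.15 ± 0.05 passed with adjusted p-values of 0.0297, 0.0245 and 0.0236. Slc32a1, Slc6a9 and Tfap2a did not pass, at -0.06 ± 0.04, -0.06 ± 0.04 and -0.12 ± 0.06.

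The count depended on GC handling. With the GC offset all 9 genes were lower at 17 than at 3 months, against a background of 41.5% in either direction and 24.8% lower, with Slc32a1 at -0.16, Slc6a9 at -0.12 and Tfap2a at -0.15. Without the 3 libraries that stood apart 8 of 9 passed, Tfap2a being the exception. The share of all genes called in that fit is not given, and over the 11 alternatives 4588 to 7433 genes were called, around 6273. All 9 log2 fold changes stayed negative in all 11 alternatives, while on log2(TPM + 1) Gad2 at -0.014 and Tfap2b at -0.018 lost their calls and Slc32a1 at -0.11 was called. The median of the 9 log2 fold changes was -0.15, beside 0.0029 over all genes. Calb2, Gad1 and Chat passed in all 11 alternatives.

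Within Efemp1ki/ki retinas, 0 of 9 genes passed at 9 against 3 months (background 8.49%). Calb2 came nearest at -0.17 ± 0.06 (adjusted p = 0.0541), and Slc32a1 was at -0.13 ± 0.06. Without the libraries that stood apart 1 passed, Slc32a1 at -0.19 (adjusted p = 0.00660). The GC offset gave 3 calls, where 15.7% of all genes passed, namely Slc32a1 at -0.18 (adjusted p = 0.00115), Calb2 at -0.20 (adjusted p = 0.0118) and Gad1 at -0.15 (adjusted p = 0.0269). At 17 against 9 months only Th passed (background 3.53%, lower 1.3%). It averaged 2.97 ± 0.316 CPM at 17 months and 3.88 ± 0.654 CPM at 9 months (SD, n = 8 each), with 8 of 8 libraries below the 9-month median and a log2 fold change of -0.40 ± 0.11 (adjusted p = 0.0356). This call was lost without a count filter and with the replicate block (adjusted p = 0.0998), and held without the libraries that stood apart (-0.40, adjusted p = 0.0227) and with the GC offset (-0.44, adjusted p = 0.0146), where Th was again the 1 gene called and 4.49% of all genes passed. At 17 against 3 months 5 genes were lower and 0 higher (background 18.8%, lower 9.01%). They were Calb2 at -0.28 ± 0.06, Gad1 at -0.23 ± 0.05, Tfap2b at -0.15 ± 0.04, Th at -0.39 ± 0.11 and Gad2 at -0.20 ± 0.07, with adjusted p-values of 0.000299, 0.00189, 0.00743, 0.0138 and 0.0446. All 8 libraries of each of these 5 genes were below the 3-month median. Without the libraries that stood apart 4 passed, with Gad2 lost. The GC offset gave 7 calls, where 23% of all genes passed, with Slc32a1 at -0.19 and Slc6a9 at -0.12 added. Gad2 passed in 6 of the 11 alternatives and Tfap2b in 10, at -0.026 on log2(TPM + 1) where it did not, while Calb2, Gad1 and Th passed in all 11.

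Within wild-type retinas Slc32a1 had its lowest mean at 9 months. At 9 against 3 months 5 genes were lower and 0 higher (background 30.7%, lower 15.5%). Slc32a1 averaged 83.5 ± 9.13 CPM at 9 months and 109 ± 7.89 CPM at 3 months (SD, n = 8 each), at -0.38 ± 0.06 with an adjusted p of 6.43e-06. It passed in all 11 alternatives, at -0.27 with the GC offset and -0.34 without the libraries that stood apart, but only at -0.13 on log2(TPM + 1). The GC trend of these 2 groups averaged -0.088 at 9 months and 0.036 at 3 months. Calb2 at -0.21 ± 0.06, Th at -0.34 ± 0.11, Chat at -0.23 ± 0.08 and Slc6a9 at -0.13 ± 0.05 also fell, with adjusted p-values of 0.00358, 0.0184, 0.0323 and 0.0393. The value of Slc6a9 turned to 0.036 on log2(TPM + 1), and 1 of these 5 calls, that of Slc32a1, held with marker covariates. Without the libraries that stood apart 4 were called and Slc6a9 was not. All 5 were called with the GC offset, where 34.6% of all genes were.

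At 17 against 9 months in wild type 2 genes were higher and 1 lower (background 21.6%, higher 10.2% and lower 11.3%). Slc32a1 averaged 104 ± 11.7 CPM at 17 months and 83.5 ± 9.13 CPM at 9 months, a log2 fold change of 0.32 ± 0.06 (adjusted p = 0.000306), and all 8 libraries were above the 9-month median. With the GC offset it was 0.15 (adjusted p = 0.00704), without the libraries that stood apart 0.24 (adjusted p = 0.000880), and on log2(TPM + 1) 0.042 (limma, adjusted p = 0.456). Th at 0.30 ± 0.11 (adjusted p = 0.0483) passed in none of the 11 alternatives, where adjusted p ran from 0.0507 to 0.351. Tfap2b at -0.11 ± 0.04 (adjusted p = 0.0442) passed in 3 of them. Slc32a1 was the 1 gene called without the libraries that stood apart, and also with the GC offset, where 12.9% of all genes were called. At 17 against 3 months 2 genes were lower (background 17.8%, lower 7.92%), Calb2 at -0.21 ± 0.06 (adjusted p = 0.00579) and Tfap2b at -0.13 ± 0.04 (adjusted p = 0.0267). Without the libraries that stood apart 5 passed, with Gad1 at -0.16, Slc6a9 at -0.12 and Chat at -0.24 added. A total of 6 passed with the GC offset, where 24.5% of all genes did, with Gad1 at -0.15, Slc32a1 at -0.13, Slc6a9 at -0.13 and Chat at -0.25 added. Calb2 passed in all 11 alternatives and Tfap2b in 9, and Tfap2b was at -0.010 on log2(TPM + 1), where it did not pass.

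**Figure D3:**
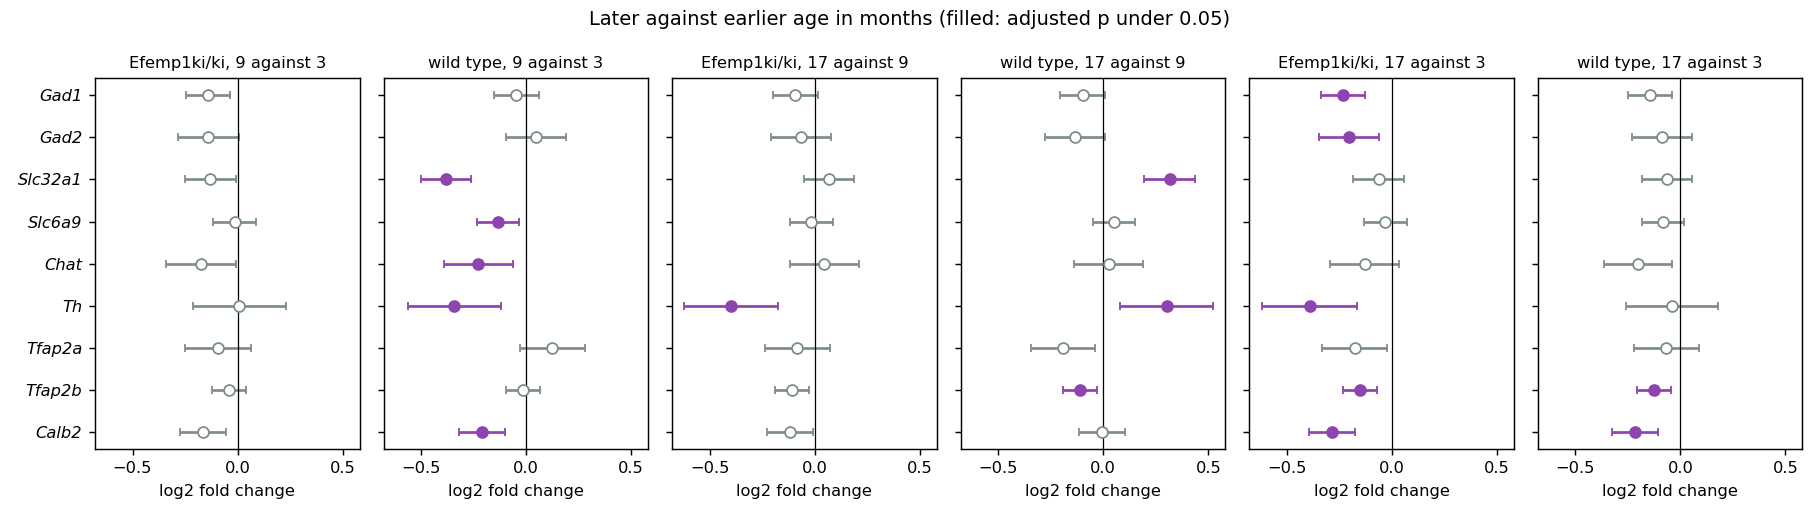
Log2 fold change of each gene for 9 over 3, 17 over 9 and 17 over 3 months, in Efemp1ki/ki and in wild type, with 95% intervals from the edgeR fit; filled points have an adjusted p under 0.05. Slc32a1 in wild type lies at -0.38 for 9 over 3 months and at 0.32 for 17 over 9 months, and Calb2 and Tfap2b are filled on the left for 17 over 3 months in both genotypes.

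Whether age acted differently in the genotypes was tested as an interaction. None of the 9 genes passed for 17 against 3 months, where the background was 0% and 690 genes had an unadjusted p under 0.05 in edgeR. None of the 11 alternatives called a gene there. For 9 against 3 months none passed either, against a background of 0.0174%. The largest values at 17 minus 3 months were those of Th at -0.35 ± 0.16 (adjusted p = 1.0), and at 9 minus 3 months those of Th at 0.35 ± 0.16 (adjusted p = 0.289) and Slc32a1 at 0.25 ± 0.09 (adjusted p = 0.193). That value of Slc32a1 was 0.16 without the libraries that stood apart and 0.10 with the GC offset, and none of the 9 passed in either fit. The calls of Th at 17 against 3 months in Efemp1ki/ki, and of Slc32a1 at 9 against 3 months in wild type, are thus not shown to belong to 1 genotype. The age comparisons of a genotype share libraries, as the 3-month group enters both of its differences.

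For age, cell markers stand beside a background of 36.4% of all genes (19.1% higher and 17.3% lower). A count near that share does not set a list apart. Of 14 ganglion cell markers 11 were lower and 0 higher at 17 than at 3 months, with sums of 903 to 1293 CPM at 17 months and 1111 to 1417 CPM at 3 months. Of 11 rod markers 9 were lower and 1 higher, with sums of 53778 to 73271 CPM at 17 months and 58336 to 73013 CPM at 3 months. Of 11 bipolar cell markers 4 were higher and 0 lower, of 10 horizontal cell markers 1 higher and 2 lower, and of 10 astrocyte, vascular and microglia markers 5 higher and 1 lower. Müller glia markers were lower in 3 of 11, and 0 of 8 lens crystallins passed. Pigment epithelium markers were higher in 3 of 10 and ocular surface keratins lower in 4 of 7. With the covariate fit, which held only rod, lens and pigment epithelium markers, 6 of the 9 genes were lower at 17 months. Tfap2a at -0.22 took the place of Th there, and 4588 of all genes were called. The part of the other cell types in the age differences was not tested.

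The wider pathways were read from lists of genes other than these 9, with no test of a list as a whole. For genotype over the 3 ages they stand beside a background of 5.24% of all genes (2.55% higher and 2.69% lower). Among 13 genes of GABA and glycine handling, 2 were lower and 0 higher in Efemp1ki/ki over the 3 ages, with a median log2 fold change of -0.048. Among them was Slc6a11, a GABA uptake transporter, at -0.08 ± 0.02 (adjusted p = 0.0238). Of 13 dopaminergic genes 1 was lower, Drd2, a dopamine receptor, at -0.13 ± 0.03 (adjusted p = 0.0203). Of 18 amacrine transcription factor genes 2 were lower, Meis2 at -0.08 ± 0.02 (adjusted p = 0.0171) and Ebf3 at -0.10 ± 0.03 (adjusted p = 0.0407), and Ebf3 is also among the ganglion cell markers above.

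No gene passed for genotype among 19 GABA receptor, 8 glycine receptor and scaffold, 18 cholinergic and 16 peptide or subtype genes. The smallest p-values there belonged to Gabra3 at -0.10 ± 0.04 and Gabbr2 at -0.07 ± 0.03 among GABA receptors, and to Gphn, the gephyrin scaffold, at -0.05 ± 0.02 and Glrb at -0.09 ± 0.06 among glycine receptor genes. Among the nicotinic receptor genes Chrna3 was at -0.15 ± 0.06 and Chrna6 at -0.10 ± 0.04, and among subtype genes Cck, encoding cholecystokinin, was at -0.18 ± 0.06 and Lamp5 at -0.09 ± 0.03. The medians of the 7 lists ran from -0.045 to -0.074, beside -0.0021 over all genes, and kept their sign in all 10 alternatives that apply to this mean.

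For age the same lists stand beside a background of 36.4% of all genes passing (19.1% higher and 17.3% lower). The share called was below that in GABA and glycine handling (3 of 13), dopaminergic genes (4 of 13) and transcription factors (4 of 18), close to it in GABA receptors (7 of 19), and above it in glycine receptor and scaffold (5 of 8), cholinergic (10 of 18) and peptide or subtype genes (8 of 16). At 17 against 3 months over both genotypes, 3 of 13 GABA and glycine handling genes were lower and 0 higher. Among them were Shmt2, the mitochondrial serine hydroxymethyltransferase, at -0.29 ± 0.04 (adjusted p = 1.14e-06), and the glutamine synthetase gene Glul at -0.10 ± 0.03, which is also counted among the Müller glia markers above. Of 19 GABA receptor genes 7 were lower and 0 higher. Among them were Gabrg1 at -0.28 ± 0.09, Gabra2 at -0.26 ± 0.08 and Gabra4 at -0.29 ± 0.11. Of 8 glycine receptor and scaffold genes 3 were lower and 2 higher. The receptor genes Glra2 and Glrb were among the lower ones at -0.28 ± 0.06 and -0.28 ± 0.07, while the receptor genes Glra1 and Glra4 were higher at 0.32 ± 0.10 and 0.22 ± 0.09.

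Of 18 cholinergic and starburst genes 8 were lower and 2 higher at 17 months. Among them were Slc5a7, the choline transporter, at -0.36 ± 0.09 (adjusted p = 0.00134), Megf11, a spacing receptor of starburst cells, at -0.20 ± 0.04, the muscarinic receptor gene Chrm2 at -0.29 ± 0.07 and the nicotinic Chrnb4 at -0.40 ± 0.12. Acetylcholinesterase (Ache) at 0.13 ± 0.04 and the nicotinic receptor gene Chrna7 at 0.21 ± 0.06 were higher. Of 13 dopaminergic genes 3 were lower, Maoa at -0.25 ± 0.06, Qdpr at -0.12 ± 0.04 and Drd5 at -0.21 ± 0.08, and 1 was higher, Maob at 0.45 ± 0.08 (adjusted p = 6.43e-06). Maoa and Maob encode monoamine oxidases, and Qdpr recycles the cofactor of tyrosine hydroxylase.

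Of 18 amacrine transcription factor genes 4 were lower and 0 higher at 17 months, Ebf1 at -0.18 ± 0.04, Ebf3 at -0.13 ± 0.04, Bhlhe22 at -0.15 ± 0.05 and Tfap2d at -0.20 ± 0.07. Of 16 peptide and subtype genes 8 were lower and 0 higher. The 6 with the smallest p were Calb1 (calbindin) at -0.34 ± 0.05 (adjusted p = 1.17e-06), Tac1 (substance P precursor) at -0.34 ± 0.07, Gjd2 (a connexin of AII amacrine cells) at -0.14 ± 0.03, Dab1 at -0.12 ± 0.03, Gal (galanin) at -0.73 ± 0.23 and Penk (enkephalin precursor) at -0.53 ± 0.17, of which Dab1 turned to 0.0074 on log2(TPM + 1). Calb1 is also counted among the horizontal cell markers above. Adjusted edgeR p-values of the genes named for age without one ran from 0.000120 to 0.0425. List medians at 17 months ran from -0.039 to -0.13, and those of GABA and glycine handling, GABA receptors, glycine receptors and transcription factors turned positive on log2(TPM + 1).

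Covariation among the 9 genes was read across the 48 libraries after the mean of each group was subtracted, so that genotype and age do not enter it. Of 36 pairs 14 passed (adjusted p of Pearson's r under 0.05, 2-sided permutation test of 100000 draws within groups, Benjamini-Hochberg adjustment over the 36 pairs), 12 with a positive r, and 15 passed by Spearman's rho. How many pairs among all genes would pass was not counted, so these counts do not set the 9 genes apart. The closest pair was Gad1 and Gad2, with r = 0.90 and rho = 0.90 (adjusted permutation p = 5.14e-05 and 9.00e-05), each resting on the smallest unadjusted p that these permutations can give, 1e-05. It was 0.86 without the 2 libraries farthest from the Gad1 median and 0.85 on log2(TPM + 1). On that scale 2 of the 14 pairs that passed changed sign, and 20 others of the 36 pairs shifted by at least 0.15 in r or changed sign without having passed.

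Both Gad genes went with the AP-2 genes. Gad1 had r = 0.70 (rho = 0.68) with Tfap2b and r = 0.68 (rho = 0.77) with Tfap2a, and Gad2 had r = 0.68 (rho = 0.64) and 0.67 (rho = 0.74), all 4 with an adjusted permutation p of 5.14e-05. Without the 2 farthest libraries these 4 values of r were 0.61, 0.82, 0.60 and 0.76. The GABA and glycine transporters Slc32a1 and Slc6a9 had r = 0.68 (rho = 0.54, adjusted permutation p = 5.14e-05), and 0.54 without the 2 farthest. On log2(TPM + 1) this pair was at 0.22.

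Slc32a1 went against Tfap2b at r = -0.50 (rho = -0.38, adjusted permutation p = 0.00475) and against Gad2 at r = -0.46 (rho = -0.30, adjusted permutation p = 0.0160). Without the 2 farthest libraries these were -0.31 and -0.25, without the libraries that stood apart -0.22 and -0.24, and on log2(TPM + 1) they reversed to 0.0224 and 0.19. By Pearson's r Th passed with 1 other gene, Calb2, at r = 0.47 (rho = 0.43, adjusted permutation p = 0.00475), and 0.48 without the 2 farthest. By Spearman's rho Th also passed with Slc6a9 at rho = 0.35 (adjusted permutation p = 0.0442), where r = 0.34 did not pass (adjusted permutation p = 0.0573). Chat passed with none, its highest r being 0.30 with Calb2 (rho = 0.25, adjusted permutation p = 0.0969). On log2(TPM + 1) the r of Chat was 0.66 with Tfap2b, 0.62 with Gad2, 0.54 with Gad1 and 0.44 with Tfap2a, where log2 CPM gave 0.0603, 0.23, 0.21 and 0.19.

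**Figure D4:**
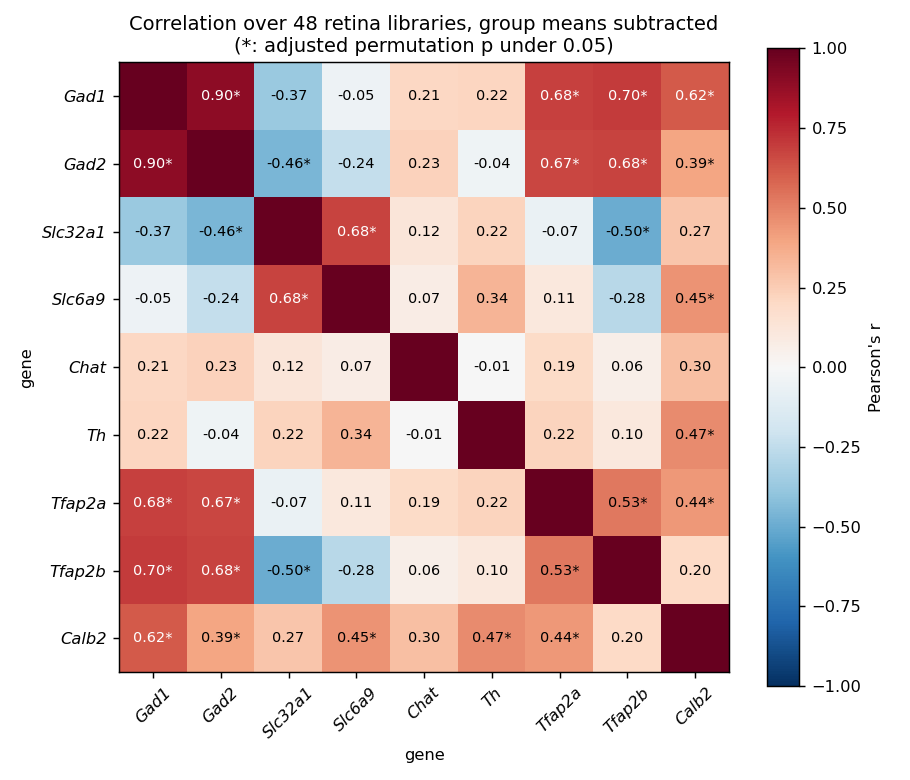
Pearson's r between each pair of the 9 genes over 48 neural retina libraries, from log2 CPM with group means subtracted; an asterisk marks an adjusted permutation p under 0.05. Gad1 and Gad2 form the darkest cell at 0.90 and the Gad and AP-2 genes share a block of positive values, while Slc32a1 is negative with Gad2 and Tfap2b.

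Library GC trends went with several of the same genes. Over 48 libraries Slc32a1 had r = 0.78 (rho = 0.65) and Slc6a9 r = 0.61 (rho = 0.44) with the GC trend, and Tfap2b had r = -0.72 (rho = -0.72), Gad2 r = -0.67 (rho = -0.68), Gad1 r = -0.53 (rho = -0.56) and Tfap2a r = -0.34 (rho = -0.42). These 6 had an adjusted permutation p under 0.05 over the 9 genes, the largest being 0.0271 for Tfap2a. How many of all genes would pass this test was not counted. Without the 2 libraries farthest in GC trend r was 0.67 for Slc32a1, 0.44 for Slc6a9, -0.65 for Tfap2b, -0.75 for Gad2, -0.61 for Gad1 and -0.53 for Tfap2a. Chat (0.24), Th (0.22) and Calb2 (0.16) did not pass, with adjusted permutation p-values of 0.218, 0.223 and 0.319. The GC content of the longest transcript was 61.9% for Slc32a1, 57.0% for Slc6a9, 54.3% for Chat, 54.1% for Th, 53.5% for Calb2, 48.7% for Tfap2a, 47.3% for Gad1, 46.3% for Tfap2b and 44.1% for Gad2. The genes with a positive r are the 5 with the highest GC, and those with a negative r are the other 4. The GC trend is itself a slope on GC over expressed genes, these 9 included. This split and the p-values above therefore follow in part from how the trend is defined. The share of the GC trend in the correlations between pairs was not tested.

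**Figure D5:**
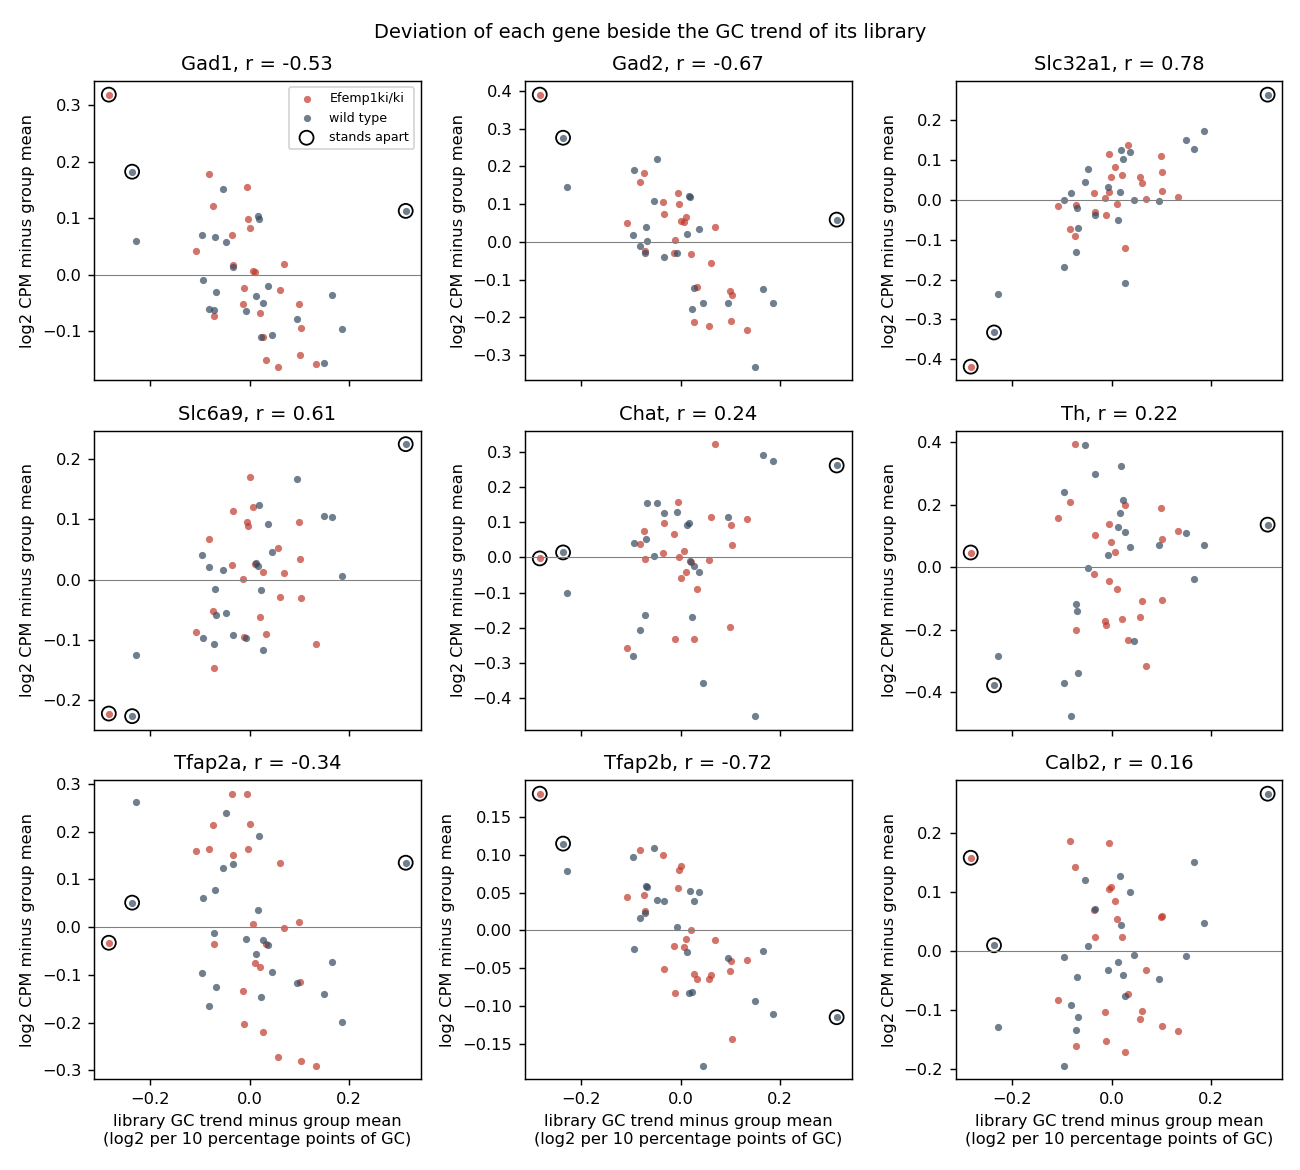
Deviation of each gene from its group mean (log2 CPM) against the GC trend of the library (log2 per 10 percentage points of GC), 48 neural retina libraries; circles mark the 3 libraries that stood apart. Slc32a1 slopes up (r = 0.78) and Tfap2b and Gad2 slope down (r = -0.72 and -0.67), while Calb2 is nearly flat (r = 0.16).

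The genes most like each of the 9 were found among 15221 others by the same r over 48 libraries. Gad1 was closest to Nrip3, Gucy1a3, Rims1, Tppp and Nrsn1 (r = 0.84 to 0.87) and Gad2 to Cdk14, Necab1, Dzank1, Tppp and Gucy1a3 (0.85 to 0.88), 2 of the 5 being shared. Slc32a1 was closest to Ckb, Rabac1, Abhd8, Chpf and Emc10 (0.89 to 0.91), and Slc6a9 to Slc22a17, Rasl10b, Sept5, Arl2 and Syndig1l (0.77 to 0.80). Chat was closest to Kif1a, Sptan1, Trio, Efr3b and Fry (0.75 to 0.80), and Th to Rexo4, Rhno1, Cartpt, Txndc15 and Olfm2, at the lowest values of the 9 (0.54 to 0.66). Tfap2a was closest to Atp1b1, Bhlhe22, Vwc2, Rab2a and Cnr1 (0.73 to 0.80) and Tfap2b to Pgm2l1, Gabra2, Dlg2, Camk4 and Dennd5b (0.81 to 0.83). Calb2 was closest to Snrpn, Ndrg4, Olfm1, Lynx1 and Syt11 (0.83 to 0.87). Bhlhe22, an amacrine transcription factor gene, Gabra2, a GABA receptor gene, and Cartpt, encoding a neuropeptide precursor, are the genes of the pathway lists among them. All these values share the libraries and their GC trends and are descriptions.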

How the data were processed

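Poly(A) RNA of neural retina was sequenced with the TruSeq Stranded mRNA kit after RNeasy micro purification with DNase digestion, per the labels' protocols, with GRCm38.p4 as genome build, per the submitters' processing notes. For the aligner, the counting tool and its strand setting, the sources used here give nothing. Groups came from the sample titles and characteristics.

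The authors deposited estimated counts per gene, 74.2% of them whole, which were rounded. The authors also deposited a table as TPM in which protein-coding genes alone sum to 1000000, so these values were treated as a score, used for levels between genes and in 1 alternative. In each file 1 column matched no label and was not used. Totals per library set the counting precision, and reads without molecular identifiers are not independent molecules. The closest pair of libraries in a group differed 2.19 times more than sampling noise (chi-square per degree of freedom), so none was a copy.

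Counts were fitted with edgeR 4.0.16 in R 4.3.3 (TMM, filterByExpr, robust quasi-likelihood F test), in 1 fit of 6 group means over 48 libraries, 17240 genes and 13 comparisons, with Benjamini-Hochberg adjustment and a threshold of 0.05. Standard errors (SE) came from the F statistic. The common biological coefficient of variation was 0.0963. The 11 alternatives, which include limma 3.58.1 and DESeq2 1.42.0, are given at the end. A library stood apart when its median deviation from its group exceeded that of all libraries by more than 3 scaled median absolute deviations. The GC offset was fitted per library as a spline (5 degrees of freedom) on GC content, taken from each gene's longest GENCODE transcript. The fit was also run on simulated counts with known changes.

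The 9 genes, the gene lists and the tests were chosen with earlier results of these data known. All 9 genes are named. Of each pathway list, the genes called were named, at most the 6 with the smallest p, or the 2 with the smallest p where none was called, except that some genes counted in their lists are not reported here by name. Likeness took the 5 genes with the highest r and a mean log2 CPM of at least 0. In flagged values, a library was singled out by Dixon's test.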

Additional observations from a re-analysis of the deposited data

Results flagged for a closer look

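In 54 checks of a gene within a group of 8 libraries, 2 found a library far from the others, where chance gives about 1 in 20, or 2.7. Slc32a1 in replicate 5 of the Efemp1ki/ki group at 3 months stood at 70.5 CPM, while the nearest other library had 94.6 CPM. This is 1 of the 3 libraries that stood apart, with a GC trend of -0.34. Without these libraries the difference of Slc32a1 between Efemp1ki/ki and wild type at 3 months was -0.14 on the log2 scale, against -0.20 with them and -0.10 with all libraries and the GC offset, and passed in none of these fits. Chat in replicate 6 of the wild-type group at 3 months stood at 10.8 CPM, while the nearest other library had 13.4 CPM. That library did not stand apart over all genes.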

How the results depend on the processing

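Of 1717 log2 fold changes under the 11 alternatives, 1652 kept their sign, 41 changed sign by less than 1 SE without a call in either fit, and 24 reversed. Threshold calls were lost in 85 and gained in 80. For the mean of the 3 ages the fit on only the groups compared is not counted, because it uses all 6 groups and is the reported fit itself.

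The number of the 9 genes called moved as follows. Counts over all genes moved as well, as the ranges further below show, so these changes alone do not set the 9 apart. For Efemp1ki/ki against wild type at 3 months it was 0, and 2 with limma voom, where 1927 of all genes were called against 316. At 17 months it was 0, and 1 with DESeq2, log2(TPM + 1), the GC offset and the GC offset with the replicate block. In the mean of the ages it was 1, and 0 without a filter, with the replicate block or with marker covariates, 2 with DESeq2, limma voom or without the libraries that stood apart, 3 with the GC offset and 4 when the replicate block was added to it. For 9 against 3 months in Efemp1ki/ki it was 0, and 1 with RLE size factors, DESeq2, log2(TPM + 1) or without the libraries that stood apart, 2 with limma voom, and 3 with the GC offset, with or without the block. For 17 against 9 months in Efemp1ki/ki it was 1, and 0 without a filter or with the replicate block. For 17 against 3 months in Efemp1ki/ki it was 5, and 8 with the GC offset and replicate block. In wild type at 9 against 3 months it was 5, and 3 with only the groups compared. It was 1 on log2(TPM + 1), and 1 with marker covariates, where 947 of all genes were called against 5297. At 17 against 9 months in wild type it was 3, with 0 on log2(TPM + 1) and 1 without a filter, with marker covariates, with the GC offset (block or not), without the libraries that stood apart or with only the groups compared. At 17 against 3 months in wild type it was 2, and 6 under limma voom, where 4721 of all genes were called against 3071. It was also 6 with the GC offset (block or not), 1 on log2(TPM + 1) and 5 without the libraries that stood apart. The counts of 0 at 9 months and in both interactions stayed within 1.5 times. So did the count of 6 for 17 against 3 months over both genotypes, which reached that limit at 9 with the GC offset. Without the libraries that stood apart it was 8.

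Reversed log2 fold changes on log2(TPM + 1) were, for Efemp1ki/ki against wild type, -0.017 for Slc32a1 at 9 months, 0.0074 for Slc6a9 and 0.081 for Chat at 17 months, and 0.015 for Chat in the mean. For 17 against 9 months they were 0.046 for Gad2 and -0.056 for Slc32a1 in Efemp1ki/ki, and 0.018 for Gad2, -0.076 for Slc6a9 and -0.081 for Chat in wild type. For wild type they were also 0.036 for Slc6a9 at 9 against 3 months and 0.040 for Gad2 at 17 against 3 months. The 9 minus 3 month interaction of Slc6a9 became -0.020, and Dab1 for age became 0.0074. With the GC offset, Slc32a1 at 17 against 9 months in Efemp1ki/ki became -0.013 (-0.00044 with the replicate block) and Slc6a9 in wild type -0.026 (-0.027 with the block). With the GC offset and block Slc32a1 at 9 months between genotypes became -0.011 and Gad2 at 9 against 3 months in wild type -0.028. Limma voom gave 0.0093 for Tfap2a at 17 against 9 months in Efemp1ki/ki and 0.015 for the 17 minus 3 month interaction of Calb2. Marker covariates gave -0.033 for Gad2 and -0.075 for Tfap2a at 9 against 3 months in wild type, and leaving out the libraries that stood apart gave -0.012 for Slc6a9 at 17 against 9 months in wild type. On log2(TPM + 1) 20 of 36 correlations moved and 2 reversed, and without the libraries that stood apart 10 moved. The correlations of Gad2 with Slc32a1 and of Slc32a1 with Tfap2b became 0.19 and 0.022 on log2(TPM + 1). The cause was not tested.

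Counts over all genes ranged from 9 to 1927 around 316 at 3 months, 1 to 682 around 70 at 17 months and 260 to 2008 around 903 in the mean of the ages. For age they ranged from 961 to 2698 around 1464, 323 to 1459 around 609 and 2162 to 4006 around 3233 in Efemp1ki/ki (9 against 3, 17 against 9 and 17 against 3 months). In wild type they ranged from 947 to 6306 around 5297, 1607 to 3935 around 3716 and 1918 to 4721 around 3071. The 9 minus 3 month interaction ranged from 0 to 353 around 3. The share of lower genes among those called was 47.6% for 17 against 3 months over both genotypes, 59.7% with the GC offset and 19.0% on log2(TPM + 1), and 51.4% for genotype in the mean of the ages, 16.5% on log2(TPM + 1) and 40.4% without the libraries that stood apart. All 54 group levels moved by less than 1 SD without TMM.

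Libraries with the same replicate number showed little likeness on average. Over 115 pairs with the same number the mean correlation of deviations was 0.016, beside -0.0024 for other pairs between groups. Of the 115, 32 exceeded 0.1, which was not counted for the other pairs. A partial link by number was not tested. The replicate block changed the counts given above. Low counts limited Th, and whole-retina libraries limit what can be said of a cell type.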
